A study of Mus musculus with 8 samples.

Results

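Kinesins are motor proteins that step along microtubules, and the question asked here was whether the kinesin genes of the prepubertal testis were expressed differently when the Tex19.1 gene was missing. The members were all probes of an Illumina Mouse WG-6 v2.0 Beadchip whose gene symbol in the platform annotation starts with Kif and a digit, or with Kifc. The rule used names and no measured value, and it found 37 genes of 19057 named on the array, measured by 88 of its 45281 probes. By role, 31 probes of 14 genes were mitotic kinesins, 37 probes of 14 genes were transport kinesins, 18 probes of 7 genes were ciliary and flagellar kinesins, and 2 probes were for Kif12 and Kif26a, which were put in none of these groups. No kinesin probe passed the threshold in either direction.

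RNA came from whole testes of 4 Tex19.1-/- males and 4 Tex19.1+/- littermate males at 16 dpp (days post partum), all on the C57BL/6 background, with 1 array for each animal. The study's methods say the mutation was backcrossed a few times to C57BL/6, to lower genetic variation, so part of the earlier mixed background can remain. How much of that mixed background remained is not stated. The Tex19.1-/- animals lack both copies of Tex19.1, a germ cell gene, and each of the 4 controls is labelled Tex19.1+/-, with 1 copy, whereas the study's methods describe control littermates of both Tex19.1+/+ and Tex19.1+/- genotypes; the labels were followed. A whole testis is a mixture of germ cells and somatic cells, so fewer cells of a type and less RNA in each cell cannot be told apart. As a check of the labels, Tex19.1 itself (ILMN_2615917) gave a detected signal in 0 of 4 Tex19.1-/- testes and in 4 of 4 Tex19.1+/- testes, and it was lower in Tex19.1-/- testes by at least 4.33-fold (limma, adjusted p = 6.33e-07). That bound sets the Tex19.1+/- mean against the lowest signal that still counted as detected on each Tex19.1-/- array.

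The kinesin family is grouped by what its members carry. In dividing cells, including the spermatogonia that multiply before meiosis, mitotic kinesins build and shorten the spindle, move chromosomes and finish cytokinesis. Transport kinesins carry vesicles, mitochondria and endosomes along cytoplasmic microtubules. Ciliary and flagellar kinesins pull cargo into cilia or work inside the axoneme, the microtubule core that later forms the sperm tail, and kinesin-2 motors are known to be needed in male germ cells for building that tail.

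Signals are given on a log2 scale after quantile normalization, so a difference of 1 is a 2 fold change, and differences are Tex19.1-/- minus Tex19.1+/-. A probe was kept for testing where its detection p-value was under 0.01 in at least 1 of the 8 arrays. This held for 42 kinesin probes of 27 genes, of which 29 probes were detected in all 8 animals. The other 46 probes did not meet this filter, and their signals lay between 4.40 and 6.04, while the lowest detected signal of an array lay between 5.93 and 6.06. For 10 genes no probe was kept: the mitotic Kif20a, Kif2b and Kifc5b, the transport kinesins Kif21b, Kif5b and Kifc3, the ciliary Kif17 and Kif7, and Kif12 and Kif26a. For these genes expression was not detectable above the array's background, which does not show that it was absent.

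Promoter windows from RefSeq (build GRCm38.p6) were matched to 30 of the 37 genes, and to 24 of the 27 genes with a kept probe. The 250 bases before each start were searched on both strands for 3 motifs: the CHR element (TTTGAA), known from promoters of G2 and M phase genes; a core of the A-MYB site (AACNGCC), A-MYB being a regulator of pachytene genes; and a half-site of the RFX factors (GTTGCCA), which act on ciliary genes. The CHR element was found in 4 of 11 mitotic genes (Kif11, Kif15, Kif22 and Kif2c), in 1 of 8 transport genes (Kif1a) and in 1 of 5 ciliary and flagellar genes (Kif27), against 18.3% of all 27025 genes in the same table. The RFX half-site stood in Kif18a and Kif23 among the mitotic genes, in Kif16b and in Kif9, against 4.2% of all genes, and the A-MYB core in Kif18b, Kif3c and Kif24, against 11.1% of all genes. No matches of different motifs overlapped. The Kif1a match lies at only 1 of its listed starts. A match is a description of letters in a window and not a bound site. Whether transcription begins at a listed start in the testis, for Kif1a, Kif27 or any other gene, was not tested. The 100 bases before the start are printed below for 3 mitotic genes whose CHR element lies 17 to 19 bases from the start, for both mitotic genes and the flagellar gene with an RFX half-site (Kif9 at that of its 2 listed starts which has the match), and for Kif27 and Kif3a, the ciliary genes with the lowest adjusted p-values. Capitals mark a motif match, read as TTCAAA where the CHR element lies on the other strand, and Kif3a has no capitals because none of the 3 motifs was found there.
Kif11 promoter (chr19:37376282-37376381, plus strand): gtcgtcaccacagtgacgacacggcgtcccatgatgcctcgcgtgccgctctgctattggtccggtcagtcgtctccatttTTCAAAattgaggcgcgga
Kif15 promoter (chr9:122950981-122951080, plus strand): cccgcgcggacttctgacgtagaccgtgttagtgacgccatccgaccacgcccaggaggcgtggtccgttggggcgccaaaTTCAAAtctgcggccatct
Kif22 promoter (chr7:127042421-127042520, minus strand): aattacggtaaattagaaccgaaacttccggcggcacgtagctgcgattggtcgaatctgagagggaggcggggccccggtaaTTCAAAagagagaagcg
Kif18a promoter (chr2:109280638-109280737, plus strand): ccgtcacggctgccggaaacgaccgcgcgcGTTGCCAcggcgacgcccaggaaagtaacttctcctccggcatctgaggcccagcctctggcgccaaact
Kif23 promoter (chr9:61946800-61946899, minus strand): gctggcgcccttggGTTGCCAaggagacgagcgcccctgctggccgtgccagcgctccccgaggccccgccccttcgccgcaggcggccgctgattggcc
Kif9 promoter (chr9:110476894-110476993, plus strand): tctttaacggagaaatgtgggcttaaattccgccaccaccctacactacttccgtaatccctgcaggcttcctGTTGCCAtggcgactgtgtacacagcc
Kif27 promoter (chr13:58354948-58355047, minus strand): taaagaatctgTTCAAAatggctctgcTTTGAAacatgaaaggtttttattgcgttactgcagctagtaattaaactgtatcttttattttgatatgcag
Kif3a promoter (chr11:53567269-53567368, plus strand): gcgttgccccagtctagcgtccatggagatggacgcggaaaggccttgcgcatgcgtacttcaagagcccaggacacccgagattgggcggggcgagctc
The Kif11, Kif15 and Kif22 elements begin 19, 19 and 17 bases before the start, and the expression values of these genes are given with the mitotic kinesins below.

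Across all 19089 kept probes, 311 were called lower (1.63%) and 27 higher (0.141%) in Tex19.1-/- testes at a limma adjusted p of at most 0.01. Among the 42 kinesin probes the counts were 0 lower and 0 higher, and the smallest adjusted p was 0.083, for Kif3a. At an unadjusted p under 0.05, 4 kinesin probes were lower and 2 were higher, against a background of 7.93% lower and 5.87% higher over all kept probes, so the kinesin counts, 4 and 2 of 42, stood near the share seen on the whole array in the fit without a block. With the replicate number as a block, the calls over all probes were 470 lower and 48 higher, and the kinesin calls stayed at 0 and 0. At an unadjusted p under 0.05 the blocked fit had 5 kinesin probes lower (11.9%) and 7 higher (16.7%), against 9.57% lower and 8.75% higher over all kept probes. In 3 kinesin probes (Kif24, Kif3b and Kif20b) every Tex19.1-/- animal lay below every Tex19.1+/- animal, and in 2 probes (Kif4 and Kif1b) every Tex19.1-/- animal lay above. Over all kept probes such separation occurred for 6.06% in the lower and 4.18% in the higher direction. The separated Kif3b probe was detected only in Tex19.1+/- animals.

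The 95% interval of the log2 change lay within a 2 fold change in either direction for 40 of the 42 kinesin probes, the exceptions being 1 probe of Kif3a and 1 of Kif23. Over the whole array this held for 18593 of the 19089 kept probes. For probes near the detection limit the interval does not bound expression. Over the alternative settings the change reached -1.47 at Kif18a and -1.35 at the Kif3b probe ILMN_2911102. With each gene represented by its brightest kept probe, the median log2 change was -0.32 over the 5 ciliary and flagellar genes, -0.06 over the 11 mitotic genes and 0.12 over the 11 transport genes, beside 0.03 over all 10904 genes tested. Over all kept probes of a group in place of 1 per gene, the mitotic median was 0.03 and the transport median 0.03, beside 0.02 over all kept probes, while the ciliary and flagellar median was again -0.32. The largest change of a represented gene was -0.48 for Kif3a in the downward and 0.32 for Kif1a in the upward direction.

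**Figure D1:**
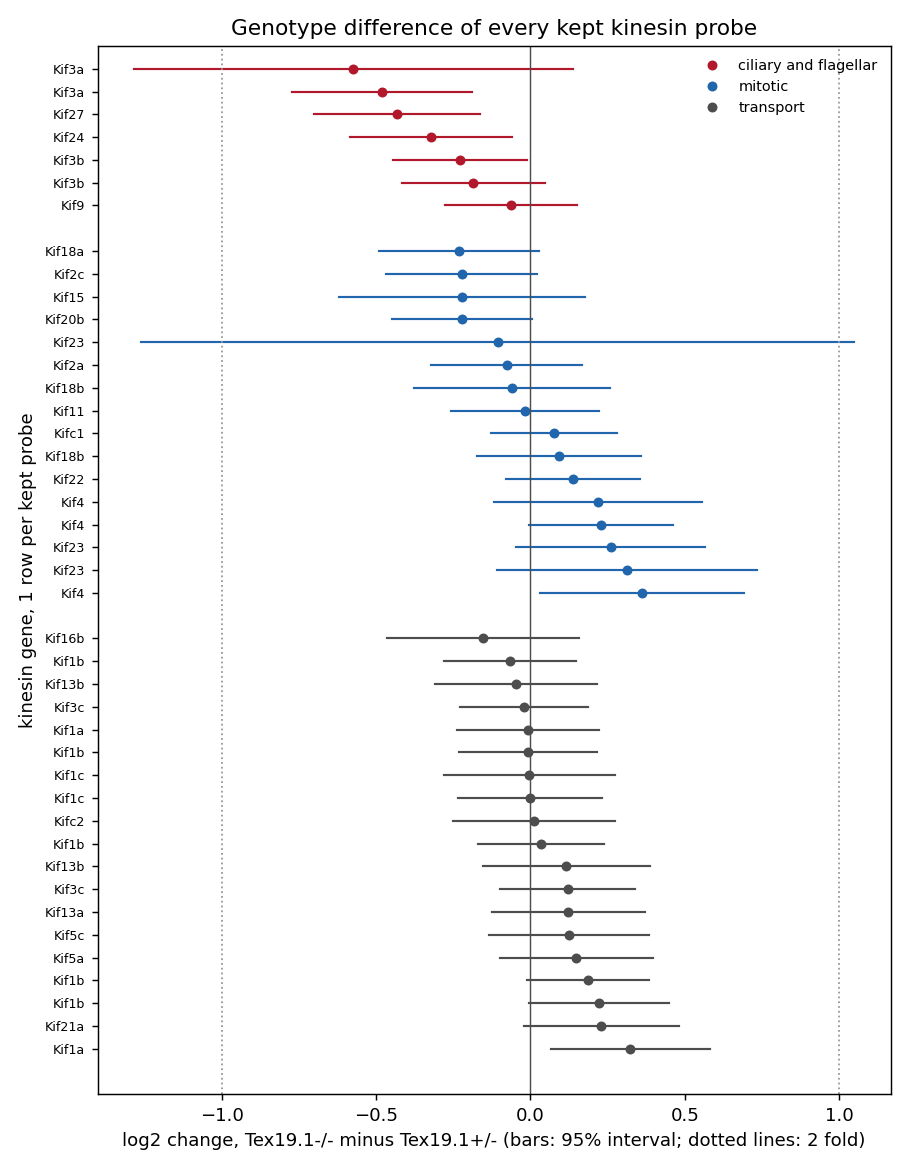
Log2 change (Tex19.1-/- minus Tex19.1+/-, horizontal axis) of each of the 42 kept kinesin probes, 1 row per probe, with its 95% interval as a bar and 2 fold changes as dotted lines. The 7 ciliary and flagellar probes at the top all lie left of 0, the 16 mitotic probes split 8 to 8, 11 of the 19 transport probes lie right of 0, and no probe passed the adjusted threshold.

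The ciliary and flagellar kinesins had the lowest values of the family, and none passed the threshold. All 7 kept probes, from 5 genes, had a negative log2 change, between -0.57 and -0.06, and 4 of the 7 had an unadjusted p under 0.05. Over all kept probes 43.9% had a negative change and 7.93% were lower at that p. The Kif9 probe and the Kif3b probe ILMN_2911102 were detected only in Tex19.1+/- animals. The filter thus kept them only through the group where they were higher, and ILMN_2911102 is among the 4. With detection asked in every array of a genotype, 5 of 5 probes were negative and 3 had an unadjusted p under 0.05. The ciliary and flagellar genes do not all serve the same structure: Kif3a and Kif3b are the motor subunits of heterotrimeric kinesin-2, which drives intraflagellar transport, Kif24 is known to shorten centriolar microtubules and restrain cilium assembly, Kif27 belongs to the kinesin-4 family and is linked to motile cilia, and Kif9 is a motor of the flagellar axoneme.

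Kif3a was measured by 2 probes. At ILMN_2765513 the log2 signals were 8.84, 8.49, 9.04 and 8.60 in Tex19.1-/- testes, against 9.18, 9.02, 9.22 and 9.47 in Tex19.1+/- testes. Only the highest Tex19.1-/- animal reached into the control range, where it lay above the lowest control. The change was -0.48 (SE 0.14, n = 4 each), with a 95% interval from -0.77 to -0.19, and the limma adjusted p was 0.083. The other Kif3a probe (ILMN_2621148) gave 7.56, 6.45, 8.43 and 6.71 in Tex19.1-/- testes and 8.01, 7.81, 7.50 and 8.13 in Tex19.1+/- testes. There the Tex19.1-/- animals spanned the whole range, with the highest and the lowest of all 8 values, and the change of -0.57 (SE 0.33, adjusted p = 0.48, n = 4 each by limma) was well within their spread. The 95% interval at this probe ran from -1.29 to 0.14.

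Kif3b, the partner of Kif3a, had smaller differences at both of its kept probes. At ILMN_2491419 the signals were 6.48, 6.42, 6.32 and 6.09 in Tex19.1-/- testes, against 6.59, 6.54, 6.49 and 6.42 in Tex19.1+/- testes, a change of -0.19 (SE 0.11, limma adjusted p = 0.49). The probe ILMN_2911102 was detected in 0 of 4 Tex19.1-/- and 2 of 4 Tex19.1+/- animals. Its signals were 5.84, 5.77, 5.84 and 5.57 in Tex19.1-/- testes and 6.07, 5.94, 6.02 and 5.90 in Tex19.1+/- testes, so the genotypes did not overlap, but at the detection limit no fold change is given (limma adjusted p = 0.33). Kifap3, the non-motor subunit that links kinesin-2 to its cargo, changed by -0.03 at its brighter probe (SE 0.11, limma adjusted p = 0.95). Its dimmer probe (ILMN_2654532) was detected in 0 of 4 Tex19.1-/- and 1 of 4 Tex19.1+/- animals and changed by -0.19 (SE 0.13, limma adjusted p = 0.58).

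Kif27 signals were 6.07, 6.39, 6.28 and 6.21 in Tex19.1-/- testes, against 6.36, 6.75, 6.68 and 6.89 in Tex19.1+/- testes. The genotypes overlapped only where the lowest control fell below the highest Tex19.1-/- animal. The change was -0.43 (SE 0.12), with an interval from -0.70 to -0.16 and a limma adjusted p of 0.090. Kif24 signals were 7.10, 7.08, 7.02 and 7.03 in Tex19.1-/- testes, against 7.22, 7.52, 7.12 and 7.65 in Tex19.1+/- testes. Here the genotypes did not overlap and the Tex19.1-/- animals were close together, with an SD of 0.04 against 0.25 in the controls, and the change was -0.32 (SE 0.12, limma adjusted p = 0.23). Kif9 was detected in 0 of 4 Tex19.1-/- and 2 of 4 Tex19.1+/- animals, with signals of 5.87 to 5.93 in Tex19.1-/- testes and 5.80 to 6.14 in Tex19.1+/- testes that overlapped fully.

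**Figure D2:**
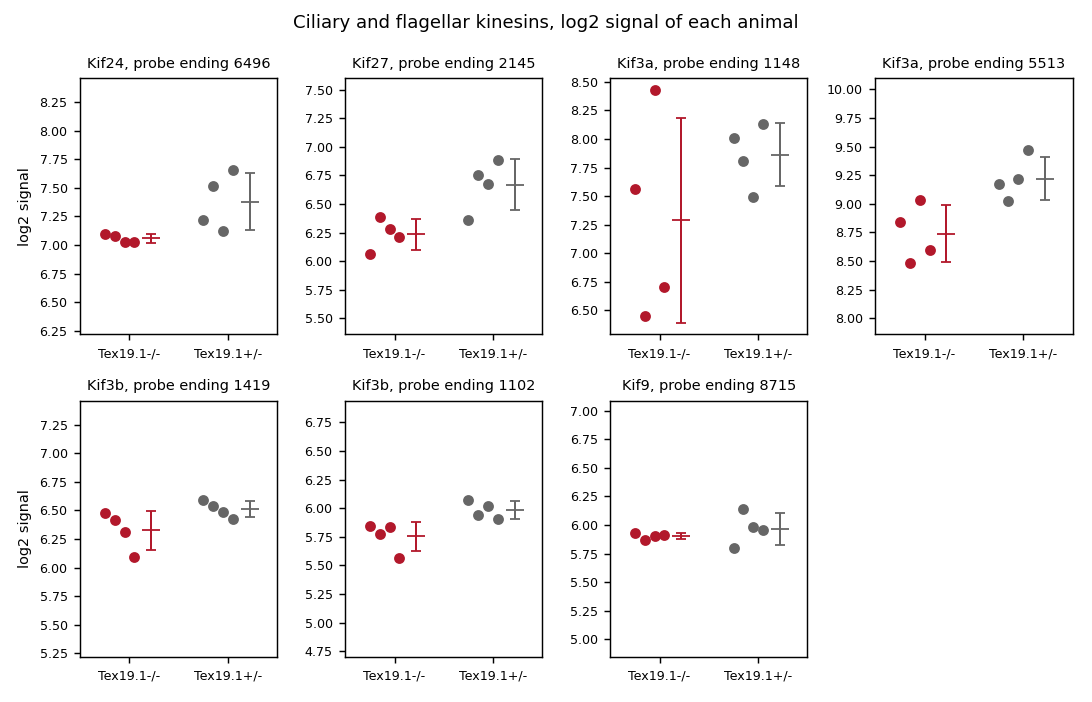
Log2 signal (vertical axis) of each animal for the 7 kept ciliary and flagellar probes, Tex19.1-/- in red on the left and Tex19.1+/- in grey on the right of each panel, with the mean and SD as bars; every panel spans the same number of log2 units. Means are lower in Tex19.1-/- testes in all 7 panels, the genotypes are fully separate for Kif24 and for 1 Kif3b probe, and the spread is widest at 1 Kif3a probe.

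Markers of the most advanced germ cells moved with genotype in the same libraries. Of 10 kept genes marking mid to late pachytene spermatocytes, 6 were called lower (Adam3, Clgn, Ldhc, Nme5, Piwil1 and Spag6l) and 0 higher, with a median change of -1.22. Their mean log2 level was 6.90 to 7.67 in Tex19.1-/- and 8.49 to 9.10 in Tex19.1+/- animals. Adam3, Pgk2, Spata16 and Ccna1 were detected only in Tex19.1+/- animals. The filter thus kept these genes only through the group where they were higher, and the median and mean levels include them. The called genes other than Adam3 were detected in both genotypes. Of 9 early prophase genes 1 was called lower (Spo11), but 8 had a negative change and 6 were lower at an unadjusted limma p under 0.05, with a median of -0.31. Of all 10904 genes, 4653 had a negative change and 950 were lower at that p. Of 3 kept spermatid genes 1 was called lower (Acr), and the others, Akap4 and Spaca1, were detected only in Tex19.1+/- animals. Prm1, Prm2, Tnp1 and Tnp2, which define elongating spermatids, had no kept probe, and 8 of the 9 listed spermatid genes were on the array. The spermatogonial, Sertoli, Leydig, peritubular myoid, endothelial and macrophage lists had 0 calls, but with the replicate block 1 probe of the spermatogonial gene Ccnd2 was called higher. The part of these cell types in the ciliary kinesin values was not tested.

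The mitotic kinesins showed no shared direction: 8 of their 16 kept probes had a positive and 8 a negative change, and 0 were called. The named genes with a positive change at their brightest probe were Kif4, Kif23 and Kif22, and those with a negative one were Kif20b, Kif2c and Kif18a, and over all 16 probes the change lay between -0.23 and 0.36. Markers of spermatogonia, the germ cells that divide by mitosis, had 9 kept genes of 12 listed, with 0 calls without the block, a positive change in all 9 and a mean log2 level of 7.99 to 8.13 in Tex19.1-/- animals against 7.82 to 7.89 in Tex19.1+/- animals. Of all 10904 genes, 6251 had a positive change. The median was 0.10 over the 9 genes, beside 0.03 over all genes, and Sohlh2 and Lin28a had signals near the detection limit. With the replicate block 1 probe (ILMN_2700166) of Ccnd2, a cyclin of dividing spermatogonia, was called higher in Tex19.1-/- testes, with overlapping genotypes. Its change was 0.66 (SE 0.26 and limma adjusted p = 0.26 without the block, adjusted p = 0.0027 with it). The Ccnd2 probes ILMN_2700168 and ILMN_1225932 changed by 0.23 and 0.04 and were not called (limma adjusted p with the block of 0.31 and 0.90). The part of the spermatogonial list in the mitotic kinesin values was not tested.

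Kif4, an X-linked chromokinesin that is known to act with Prc1 at the midzone of the anaphase spindle, had positive changes at all 3 of its probes. At ILMN_1220039 the signals were 7.67, 7.47, 7.44 and 7.45 in Tex19.1-/- testes, against 7.37, 7.35, 7.35 and 7.04 in Tex19.1+/- testes, without overlap, a change of 0.23 (SE 0.11, limma adjusted p = 0.37). At ILMN_2747641 they were 6.82, 7.18, 6.62 and 6.48 in Tex19.1-/- testes, against 6.53, 6.66, 6.24 and 6.24 in Tex19.1+/- testes, with overlapping ranges and a change of 0.36 (SE 0.15, limma adjusted p = 0.30). The third probe, ILMN_1232030, gave 6.25 to 6.85 in Tex19.1-/- testes and 5.94 to 6.61 in Tex19.1+/- testes, a change of 0.22. Positive changes were usual on the X chromosome in these libraries: of 541 other X-linked kept probes, 462 had a positive change, 12 were called higher and 0 lower, and the median over their 390 genes was 0.16. The share with a positive change was thus 85.4% on the X chromosome, against 56.1% of all kept probes, of which 0.141% were called higher.

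Kif23, the motor of the centralspindlin complex that is retained in the intercellular bridges between germ cells, had 3 kept probes that did not run the same way. At ILMN_1250752 the signals were 9.72, 9.57, 9.81 and 10.03 in Tex19.1-/- testes, against 9.81, 8.79, 9.49 and 9.81 in Tex19.1+/- testes, a change of 0.31 (SE 0.20, limma adjusted p = 0.53). The low control animal, numbered 2, carried most of this value, and without it the change was 0.09. At ILMN_2923463 the range was 8.19 to 8.77 in Tex19.1-/- testes and 8.10 to 8.57 in Tex19.1+/- testes, a change of 0.26 (SE 0.14). The probe ILMN_1220121 gave 7.62, 7.32, 7.11 and 5.40 in Tex19.1-/- testes and 7.78, 7.23, 7.67 and 5.21 in Tex19.1+/- testes. It was undetected in the animal numbered 4 of each genotype and detected in the other 6, and its change of -0.11 had an SE of 0.54. Only 1 of the 19089 kept probes, this one, had such a pattern for replicate number 4 with a gap of at least 1 log2 unit, and its cause was not tested.

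The other named mitotic kinesins differed by small amounts. Kif22, a chromokinesin that pushes chromosome arms away from the spindle poles, had 9.19, 8.96, 9.18 and 9.20 in Tex19.1-/- testes, against 8.95, 9.11, 8.88 and 9.03 in Tex19.1+/- testes, a change of 0.14 (SE 0.10, limma adjusted p = 0.60). Kif20b, which acts in late cytokinesis, had 6.36, 6.48, 6.40 and 6.09 in Tex19.1-/- testes, against 6.57, 6.52, 6.54 and 6.57 in Tex19.1+/- testes. Its genotypes did not overlap, and the change was -0.22 (SE 0.10, limma adjusted p = 0.37). Kif2c, a kinesin that removes tubulin from microtubule ends at kinetochores, had 8.77, 8.83, 9.08 and 8.92 in Tex19.1-/- testes, against 9.01, 9.15, 8.98 and 9.35 in Tex19.1+/- testes. The ranges overlapped, the change was -0.22 (SE 0.11, limma adjusted p = 0.41), and it turned to 0.05 when arrays were scaled to a common median in place of quantile normalization, a setting that moved the median change of all probes to 0.14. Kif18a, which limits chromosome oscillation, was detected in 0 of 4 Tex19.1-/- and 1 of 4 Tex19.1+/- animals, with signals of 5.42 to 5.68 in Tex19.1-/- testes and 5.53 to 6.00 in Tex19.1+/- testes. Kif11, Kif15, Kif18b, Kif2a and Kifc1 had changes between -0.22 (Kif15) and 0.09 (a Kif18b probe), with adjusted p-values of 0.65 to 0.97. Among the genes whose CHR element is printed above, the changes were thus -0.02 for Kif11, -0.22 for Kif15 and 0.14 for Kif22.

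**Figure D3:**
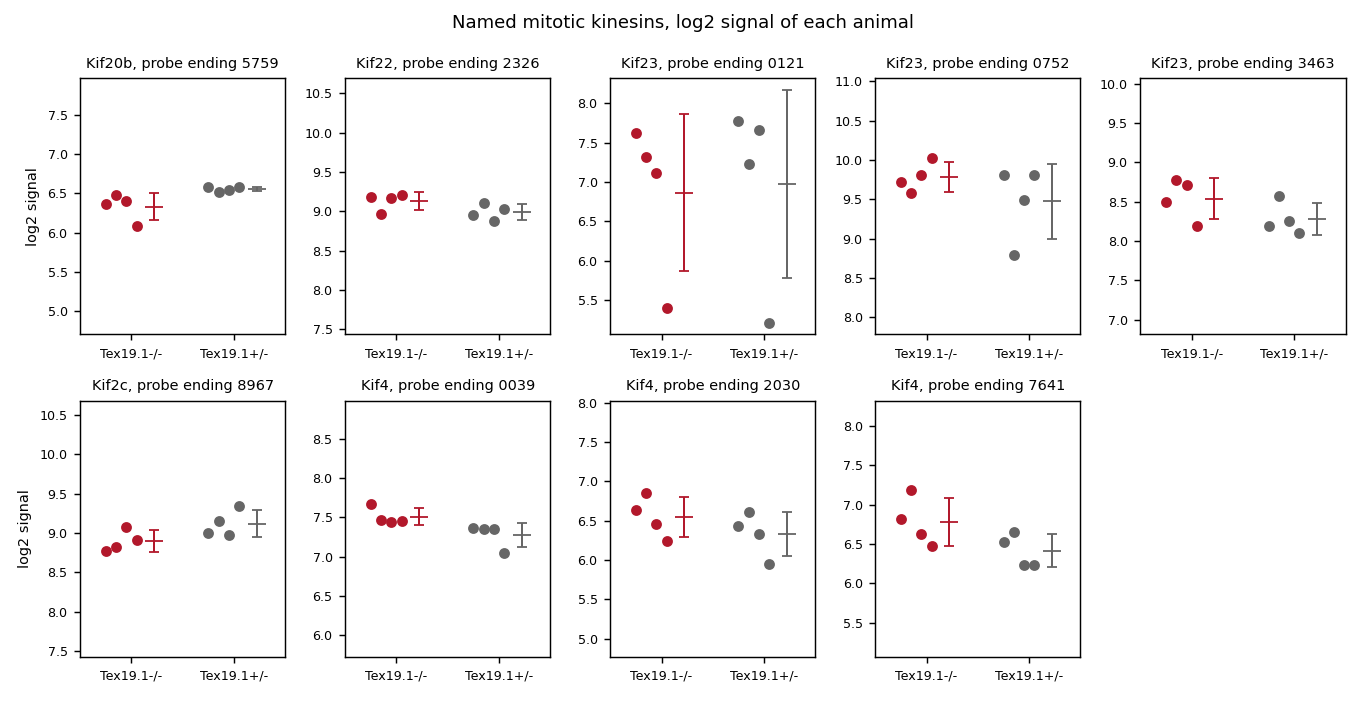
Log2 signal (vertical axis) of each animal for the kept probes of Kif20b, Kif22, Kif23, Kif2c and Kif4, Tex19.1-/- in red on the left and Tex19.1+/- in grey on the right of each panel, with the mean and SD as bars; every panel spans the same number of log2 units. The animals separate by genotype for Kif20b and for 1 Kif4 probe, and 1 Kif23 probe has a single low animal in each genotype, at 5.40 in Tex19.1-/- and 5.21 in Tex19.1+/- testes.

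The transport kinesins had 0 calls in 19 kept probes, and all 19 intervals lay within 2 fold. Of 11 genes, 9 had a positive change at their brightest probe and 2 a negative one, between -0.15 for Kif16b, a motor of early endosomes, and 0.32 for Kif1a. Of all 10904 genes, 6251 had a positive change. Over all 19 kept transport probes the positive share was 57.9%, near the 56.1% of all kept probes. Most of these motors are best known from neurons. Beside them, the mean log2 level of 7 Sertoli genes was 10.01 to 10.25 in Tex19.1-/- and 9.89 to 10.17 in Tex19.1+/- animals, and that of 4 Leydig genes was 7.20 to 7.78 in Tex19.1-/- and 6.78 to 7.46 in Tex19.1+/- animals. Their part in the transport kinesin values was not tested.

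Kif1a, a carrier of synaptic vesicle precursors, had the largest positive change of the represented genes. At ILMN_1233840 the signals were 9.33, 9.56, 9.50 and 9.47 in Tex19.1-/- testes, against 8.89, 9.34, 9.32 and 9.01 in Tex19.1+/- testes. The lowest Tex19.1-/- animal lay just below the highest control, and the change was 0.32 (SE 0.12), with an interval from 0.07 to 0.58 and a limma adjusted p of 0.22. The dimmer Kif1a probe (ILMN_2965896) was detected in 1 of 4 Tex19.1-/- and 2 of 4 Tex19.1+/- animals, and its change was -0.01 (SE 0.11).

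Kif1b, which carries mitochondria and vesicle precursors in different isoforms, had 5 kept probes, and the brighter ones differed from the dimmer ones. At ILMN_2670778 the signals were 8.66, 8.82, 8.64 and 8.76 in Tex19.1-/- testes, against 8.51, 8.53, 8.54 and 8.55 in Tex19.1+/- testes. The genotypes did not overlap, and the change was 0.19 (SE 0.09, limma adjusted p = 0.39). At ILMN_3034877 they were 8.03, 8.29, 8.27 and 8.13 in Tex19.1-/- testes, against 7.77, 7.98, 7.996 and 8.08 in Tex19.1+/- testes, a change of 0.22 (SE 0.11, limma adjusted p = 0.38). The other 3 Kif1b probes had signals near the detection limit and changes between -0.07 and 0.03.

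Among the remaining named transport kinesins, Kif21a, a kinesin-4 motor that restrains microtubule growth, had 8.18, 8.32, 8.07 and 8.15 in Tex19.1-/- testes, against 7.91, 7.97, 8.21 and 7.72 in Tex19.1+/- testes. Only 1 control reached the Tex19.1-/- range, and the change was 0.23 (SE 0.12, limma adjusted p = 0.41). Kif5a, a heavy chain of conventional kinesin, was detected in 2 of 4 Tex19.1-/- and 1 of 4 Tex19.1+/- animals and changed by 0.15 (SE 0.11). Kif3c, a kinesin-2 motor of neurons, changed by 0.12 (SE 0.10) at its brighter probe, and Kif13a, which moves endosomes and recycling cargo, by 0.12 (SE 0.11). Kif13b, Kif1c, Kif5c and Kifc2 had changes between -0.05 and 0.12, with adjusted p-values of 0.71 to 0.99.

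**Figure D4:**
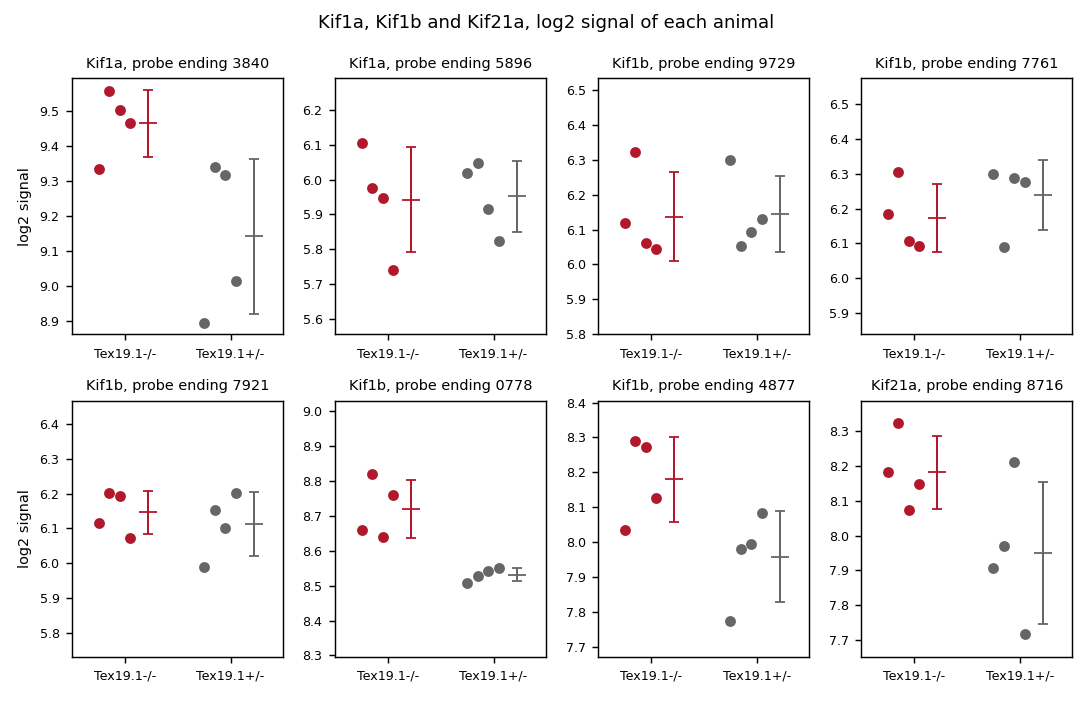
Log2 signal (vertical axis) of each animal for the kept probes of Kif1a, Kif1b and Kif21a, Tex19.1-/- in red on the left and Tex19.1+/- in grey on the right of each panel, with the mean and SD as bars; every panel spans the same number of log2 units. The genotypes separate only at the Kif1b probe with signals of 8.64 to 8.82 in Tex19.1-/- testes, and in the other 7 panels they overlap.

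The genes that work with kinesins were compared from 5 lists. The spindle and midzone list had 11 kept genes of 15 listed, and 1 was called, Prc1, which bundles antiparallel microtubules and recruits Kif4 to the midzone. Prc1 signals were 10.49, 10.34, 10.61 and 10.37 in Tex19.1-/- testes, against 10.87, 11.05, 10.998 and 11.09 in Tex19.1+/- testes, without overlap. The change was -0.55 (SE 0.10, limma adjusted p = 0.0075), but the call rested on the full set of animals: leaving out any single animal other than the Tex19.1-/- animal numbered 3 gave adjusted p-values of 0.013 to 0.037. The kinesin light chains and cargo adaptors had 9 kept genes of 12 listed and 0 calls, with changes from -0.62 to 0.24 and a median of 0.03. The intercellular bridge list, which with Kif23 holds cells of a germ cell clone together, had 4 kept genes and 0 calls, with a median of -0.08. The proliferation list had 8 kept genes of 13 listed, 0 calls and a median of 0.17.

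Cytoplasmic dynein moves in the direction opposite to that of most kinesins, and all 12 of its listed genes were kept. Dynlrb2, a light chain of dynein that is abundant in testis and ciliated tissue, was the 1 gene called. Its signals were 6.74, 6.18, 6.94 and 6.61 in Tex19.1-/- testes, against 8.28, 8.33, 8.07 and 8.95 in Tex19.1+/- testes, a change of -1.79 (SE 0.19, limma adjusted p = 2.35e-04), or 3.45-fold lower. The closely related Dynlrb1 changed by 0.31 (SE 0.13, limma adjusted p = 0.28). Dync2h1 and Dync2li1, chosen after their values were seen because they form the dynein that returns cargo along the axoneme driven outward by Kif3a and Kif3b, changed by -0.60 (SE 0.13, limma adjusted p = 0.024) and -0.42 (SE 0.14, limma adjusted p = 0.15) at their brightest probes. The genotypes did not overlap at either probe, and neither was called. Such separation in the lower direction occurred for 6.06% of all kept probes, and a link of these genes to the Kif3a and Kif3b values was not tested. The other 3 kept Dync2h1 probes had smaller changes and overlapping genotypes, with -0.33 at ILMN_2554464 (limma adjusted p = 0.30), -0.18 at ILMN_1239774 (0.66) and 0.03 at ILMN_2557087 (0.94). The median over the 12 dynein genes was -0.04.

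**Figure D5:**
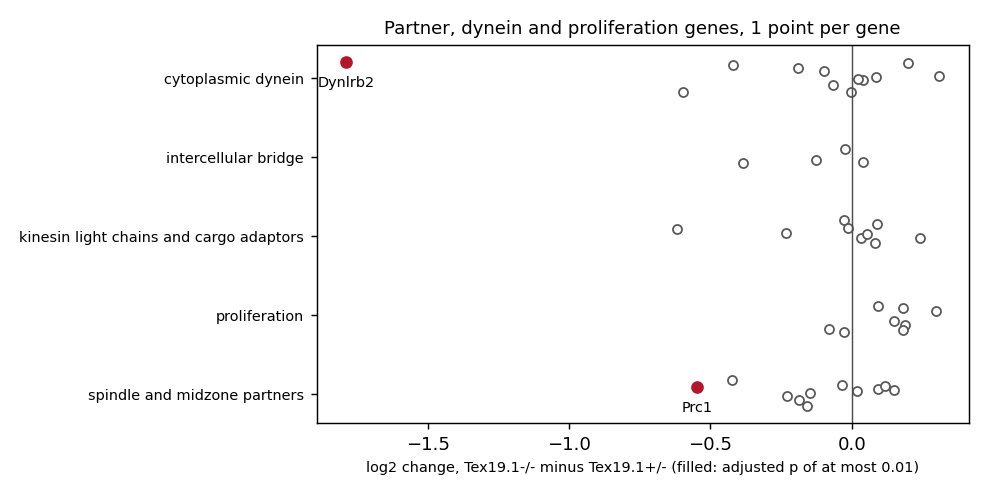
Log2 change (Tex19.1-/- minus Tex19.1+/-, horizontal axis) of the genes in 5 lists of partner, dynein and proliferation genes, 1 point per gene at its brightest kept probe and scattered vertically within a list for legibility. Filled red points passed an adjusted p of 0.01: Dynlrb2 at -1.79 and Prc1 at -0.55, and the other points lie between -0.62 and 0.31.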

How the data were processed

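Gene expression was profiled in 8 testes with Illumina Mouse WG-6 v2.0 Beadchips. The intensity deposited by the authors for each probe is a linear signal, background-subtracted in BeadStudio, so values below 0 occur (the BeadStudio release is not given in the sources used here). The authors deposited a detection p-value beside it, and a table of log2 values, quantile normalized, which was used as an alternative. Here a constant was added to each array to bring its lowest signal to 1, and log2 values were quantile normalized, which gave values within 0.0144 log2 units of the deposited log2 table. Probes with a detection p-value under 0.01 in at least 1 array were kept (42.2%). The 4 Tex19.1-/- and 4 Tex19.1+/- arrays were fitted by lmFit and eBayes of limma 3.58.1 (R 4.3.3) over all kept probes, with Benjamini-Hochberg adjustment and a threshold of 0.01. The procedure was also run on simulated data in which the animals varied independently. That run does not cover animals that deviate together. 

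Samples were grouped by the genotype in the labels, which give all controls as Tex19.1+/- (the study's methods name Tex19.1+/+ controls too), and each array is a separate animal. Animals of the same replicate number deviated together from their genotype means (correlations over kept probes of 0.10 to 0.52), so a fit with the number as a block was run. What the number stands for is not stated, and the animals numbered 3 and 4 correlated better with another number. Arrays had 13720 to 14668 detected probes in Tex19.1-/- and 14152 to 15876 in Tex19.1+/- animals, and their number, 4 per genotype, limits the precision.

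Genes were named by rule: all called, then the 6 largest moderated t values in each group at the brightest kept probe, then genes whose probes differ in sign with 1 at an unadjusted p under 0.05. This gave 17 genes. The members, lists and motifs were chosen with earlier results of these data known. Probe and gene names are those of the platform annotation, with symbols brought up to date by Entrez identifier. A fold change against undetected probes was set as a lower bound and left out where under 1. Alternatives to the background, shift, normalization, filter and model were tried, and each animal was left out in turn.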

Additional observations from a re-analysis of the deposited data

Results flagged for a closer look

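In 58 sets of 4 animals (the named kinesin probes in each genotype), 4 held a value that stood apart from the other 3 by Dixon's criterion, which chance alone meets in about 5% of sets. At the Kif22 probe ILMN_2762326 the Tex19.1-/- animal numbered 2 had a log2 signal of 8.96, while the other 3 lay at 9.18 to 9.20. At the Kif4 probe ILMN_1220039 the Tex19.1-/- animal numbered 1 had 7.67, with the others at 7.44 to 7.47, and the Tex19.1+/- animal numbered 4 had 7.04, with the others at 7.35 to 7.37. At the Kif1b probe ILMN_2587761 the Tex19.1+/- animal numbered 2 had 6.09, with the others at 6.28 to 6.30.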

How the results depend on the processing

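The count of called kinesin probes was 0 in every group and direction under all 19 alternatives run: 11 other settings and each of the 8 animals left out. With the replicate block the smallest kinesin adjusted p was 0.024 (Kif27). Without the Tex19.1+/- animal numbered 1 it was 0.028 (Kif27) and without the Tex19.1-/- animal numbered 3 it was 0.038 (Kif3a), and over all alternatives it ranged from 0.024 to 0.60. The ciliary and flagellar probes had a negative change in 5 of 5 with detection asked in every array of a genotype. With no detection filter it was 15 of 18, with a median of -0.06, and the 11 probes added there were detected in no animal. In the other alternatives it was 7 of 7. At the brightest probe of each of the 17 named genes, 317 values kept their direction and side of the threshold under the alternatives, and 1 did not: Kif2c turned to 0.0525 under median scaling. Of the 12 other kept probes of these genes, none of them called, 5 changed sign in 1 or more alternatives: Kif23 ILMN_1220121 in 4 (up to 0.38), Kif1a ILMN_2965896 in 5, Kif1b ILMN_1239729 in 5, Kif1b ILMN_2647921 in 1 and Kif3c ILMN_2590729 in 3. Of the 13 kept probes of unnamed genes, 8 changed sign. That setting moved the median change of all probes to 0.14, against 0.02 with quantile normalization, and called 1 probe lower and 0 higher on the whole array. Setting signals under 0 to 0 called 20 lower and 1 higher, against 311 and 27. Dynlrb2 lost its call under these settings (adjusted p of 0.099 and 0.027), and Prc1 under these (0.80 and 0.079), under neqc background correction (0.030) and with the lowest probe left out of the shift (0.013). Probes with signals near 6 lie at the detection limit, where small changes would not be seen.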
